A study of Mus musculus with 6 samples.

Results

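The mouse mitochondrial genome carries 37 genes, and all 37 are rows of the count tables examined here: 2 ribosomal RNAs (rRNAs), 13 messenger RNAs (mRNAs) and 22 transfer RNAs (tRNAs), out of 54446 gene rows. They were chosen by name, as the rows whose Ensembl identifier maps in the GENCODE M21 annotation to a symbol starting with mt-. RNA came from regulatory T cells (Treg cells, CD4 T cells that hold immune responses back and depend on the transcription factor Foxp3) from subcutaneous tumours of B16F10, a mouse melanoma cell line. Cells that were alive and positive for CD45, CD4 and a Foxp3-linked GFP were sorted, and libraries were made with a stranded total RNA kit, so rRNAs and RNAs without a poly(A) tail can be read. The 3 control libraries carry the genotype label Foxp3Cre Ythdf2 fl/+ and the 3 libraries labelled Ythdf2 cKO carry Foxp3Cre Ythdf2 fl/fl, so by these labels every library has the Foxp3-driven Cre and at least 1 floxed Ythdf2 allele, although the titles call the controls WT. The labels used here give no ages. The titles also name a cage: cage 1 for controls 1 and 2 and for Ythdf2 cKO library 1, cage 2 for control 3 and for Ythdf2 cKO libraries 2 and 3. Whether each library comes from its own animal is not stated, so p-values measure the spread between these 6 libraries, which may be technical in part.

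Mitochondrial DNA is transcribed from both strands into long precursors, and most tRNAs lie between the rRNA and mRNA genes, where their excision releases the neighbours. The mRNAs encode core subunits of respiratory complexes I, III and IV and of ATP synthase, the rRNAs build the mitochondrial ribosome, and the tRNAs serve it. Everything else the system needs, from the RNA polymerase to the ribosomal proteins, is encoded in the nucleus. Of the 37 genes, 28 lie on the plus strand of the reference and 9 on the minus strand, which are mt-Nd6 and 8 tRNAs. Treg cells are known to rely on mitochondrial respiration for their suppressive function.

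The libraries held between 5602053 and 13602069 gene counts, 57867662 in all. Ythdf2, which encodes a reader of N6-methyladenosine that promotes mRNA decay, was at 99.1 ± 8.11 CPM (counts per 1000000, TMM-scaled) where labelled Ythdf2 cKO and at 106 ± 15.9 CPM in controls (SD, n = 3 each), a log2 difference of -0.10 (standard error 0.16, edgeR adjusted p = 1). These are counts over the whole gene, and the labels do not name the exons that Cre removes. Foxp3, which defines the sort, was at 346 ± 19.6 CPM in cage 2 and 516 ± 81.4 CPM in cage 1 (SD, n = 3 each), and its log2 fold change between cages was -0.65 (edgeR adjusted p = 0.00913). Markers of other cells moved with cage as well. The summed level of 15 melanoma markers was 70.9 to 670.6 CPM of gene counts in cage 1 and 3025 to 4192 in cage 2, and 14 of the 15 were called higher in cage 2. For 12 macrophage markers the sums were 7.32 to 62.2 CPM in cage 1 and 20.4 to 206 in cage 2, and 6 were called higher in cage 2. For 11 Treg markers they were 7927 to 8774 CPM in cage 1 and 3130 to 6253 in cage 2, and 7 of the 11 were called lower in cage 2. Sums of 7 fibroblast markers were 3.04 to 9.82 CPM in cage 1 and 10.7 to 150.3 in cage 2 (3 of 4 tested called higher in cage 2), and those of 6 erythroid markers 0.856 to 24.3 and 19.4 to 155 (2 of 6 called higher). Sums of 8 B and plasma cell markers were 141 to 216 CPM in cage 1 and 59.1 to 127 in cage 2 (0 of 5 tested called), and those of 6 CD8 T and NK cell markers 19.1 to 36.6 and 15.8 to 21.4 (1 of 3 tested called lower). In the TMM-scaled fit, however, 3 of these 5 and 2 of these 3 had log2 fold changes above 0, with medians of 0.88 and 0.65. All these sums are relative to gene counts that include the mitochondrial RNAs, whose share was larger in cage 2. In Ythdf2 cKO replicate 1, 4 of the melanoma markers and 7 of the macrophage markers were at 0. These values stand beside every comparison of cages that follows, and their part in it was not tested. Fewer cells of a type and less RNA per cell cannot be told apart in such bulk samples.

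Several of the mitochondrial genes have near-identical copies in nuclear DNA, and a few sequences show how close they are. They were taken from the GENCODE M21 transcripts (mm10), and positions count from 1 at the first base of the mitochondrial gene. A stretch of chromosome 1, chr1:24611535-24616197 on the minus strand, holds 7 annotated pseudogenes that match, in order and with 2 mismatches in 4140 aligned bases, the mitochondrial genes from the last 483 bases of mt-Co1 to the first 876 bases of mt-Nd4. The first pair shows the only mismatch in the mt-Co1 copy (A1066T, the mitochondrial base first, in capitals), at chrM:6390-6422 and chr1:24616156-24616188.
mt-Co1: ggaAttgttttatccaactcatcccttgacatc
Gm29216: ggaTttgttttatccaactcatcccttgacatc
The first 60 bases of mt-Co2 (chrM:7013-7072) and of its copy (chr1:24615506-24615565) have no difference, as is true of the whole aligned length of 681 bases.
mt-Co2: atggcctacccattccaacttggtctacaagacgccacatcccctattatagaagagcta
Gm28661: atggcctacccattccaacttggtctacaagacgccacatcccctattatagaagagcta
The start of mt-Nd3 (chrM:9459-9490) differs from its copy (chr1:24613088-24613119) by T3C, the other mismatch of the stretch.
mt-Nd3: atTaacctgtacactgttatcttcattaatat
Gm28438: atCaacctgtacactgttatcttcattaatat
The copy of mt-Cytb on chromosome 4 is shown for contrast. It is 92.9% identical over 1142 bases, and 2 mismatches (G14A and C24T) fall within 42 bases at chrM:14146-14187 and chr4:80003990-80004031.
mt-Cytb: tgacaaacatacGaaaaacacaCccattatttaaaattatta
Gm11410: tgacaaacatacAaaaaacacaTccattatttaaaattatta
Any 50 bases of mt-Co2 thus also occur unchanged in an annotated nuclear transcript, and no 50 bases of mt-Cytb do.

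The rRNAs made up 93.8% of all mitochondrial counts over the 6 libraries, the mRNAs 6.20% and the tRNAs 0.0222%. As a share of all gene counts, the rRNAs took 12.02%, 11.14% and 42.61% in control replicates 1, 2 and 3 and 9.97%, 18.04% and 19.18% in Ythdf2 cKO replicates 1, 2 and 3. The 3 libraries of cage 2 were the 3 highest, and control replicate 3 stood far above the rest. Counting error was small beside these gaps, with a Wilson 95% interval from 42.58% to 42.65% in control replicate 3. The mRNAs took 0.952%, 0.718% and 2.49% of gene counts in the controls and 0.609%, 1.31% and 1.34% in the Ythdf2 cKO libraries, in the same order of cages. All 37 genes together took between 10.6% and 45.1%. Between 12.6 and 17.1 rRNA reads were counted for each mRNA read.

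**Figure D1:**
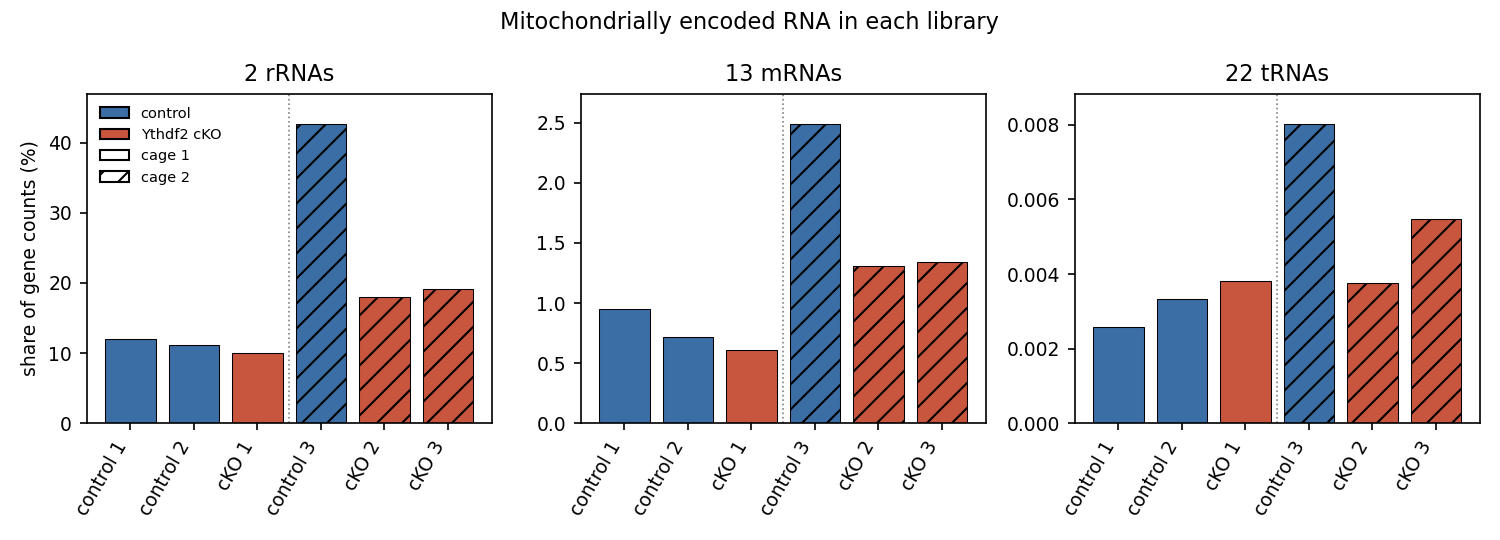
Share of gene counts (%) taken by the 2 rRNAs, the 13 mRNAs and the 22 tRNAs in each library. Bars are single libraries, coloured by genotype and hatched for cage 2. The cage 2 libraries hold the 3 highest rRNA and mRNA shares, with control replicate 3 at 42.6% and 2.49%, while the tRNA shares of the cages overlap.

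mt-Rnr1 (12S rRNA, of the small ribosomal subunit; chrM:70-1024) and mt-Rnr2 (16S rRNA, of the large subunit; chrM:1094-2675) were read at about the same level per length. mt-Rnr1 stood at 45931, 41498 and 170740 RPKM (reads per kb per 1000000 gene counts) in the controls and at 37167, 70861 and 72024 in the Ythdf2 cKO libraries. mt-Rnr2 stood at 48282, 45379 and 166301 in the controls and at 40616, 71271 and 77734 in the Ythdf2 cKO libraries on the same scale. The ratio of mt-Rnr2 to mt-Rnr1 per kb ran only from 0.974 to 1.09 over the 6 libraries, and mt-Rnr2 was the higher in 5 of them.

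The mRNAs divided into 7 that were well read and 6 that were hardly read at all. The level is given in RPKM over the annotated length, as the mean ± SD of the 6 libraries. mt-Cytb, the complex III subunit, was at 2826 ± 1829 and mt-Co1, the catalytic subunit of complex IV, at 2534 ± 1604. mt-Cytb was above mt-Co1 in 5 of 6 libraries. Of the complex I subunits, mt-Nd1 followed at 1510 ± 543, mt-Nd5 at 1138 ± 509.1, mt-Nd4 at 709.5 ± 429.9 and mt-Nd2 at 575 ± 225. Each of these was above the next in all 6 libraries, except mt-Nd4, which was above mt-Nd2 in 4. mt-Nd6, the complex I subunit encoded on the minus strand, was the lowest of the 7 at 209 ± 36.6 and varied the least between libraries. The large SDs of the others come with the high level in control replicate 3.

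In the libraries themselves, mt-Cytb stood at 1946, 1406 and 6183 RPKM in the controls and 1241, 3137 and 3040 in the Ythdf2 cKO libraries. mt-Co1 was read at 1711, 1444 and 5575 and at 1231, 2480 and 2763. For both genes, each cage 2 library was above each cage 1 library. mt-Nd1 was at 1516, 1002 and 2394 in the controls and 876 (Ythdf2 cKO replicate 1), 1656 and 1619 in the others. mt-Nd5 was at 991, 725 and 2029 in the controls and 601, 1219 and 1265 in the Ythdf2 cKO libraries. mt-Nd4 was at 515, 395 and 1505 and at 322, 755 and 764. mt-Nd2 was at 551, 400.1 and 925 and at 283, 689 and 603. Cage 2 was again above cage 1 in all of its libraries for these complex I genes, although for mt-Nd1 and mt-Nd2 the gap from control replicate 1 to the nearest cage 2 library was small. mt-Nd6 was at 211, 174 and 272 in the controls and 187, 229 and 183 in the Ythdf2 cKO libraries, and here the cages overlapped.

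The 6 mRNAs with few reads are mt-Co2 and mt-Co3 (complex IV), mt-Atp6 and mt-Atp8 (ATP synthase) and mt-Nd3 and mt-Nd4l (complex I). They had 20 to 144 counts together in a library. mt-Co2 had 19, 29 and 86 counts in the controls and 13, 36 and 27 in the Ythdf2 cKO libraries, a level of 5.46 ± 4.33 RPKM (mean ± SD of 6). mt-Atp6 had 11, 22 and 33 counts in the controls and 1, 22 and 6 in the Ythdf2 cKO libraries. mt-Nd3 had 12, 9 and 3 and then 1, 14 and 0 counts. These are levels far below those of mt-Co1 and mt-Cytb, which are carried on the same strand. mt-Co3 had 2 to 13 counts per library, mt-Atp8 0 to 8 and mt-Nd4l 0 to 4.

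These 6 genes are neighbours, and they lie inside the stretch matched on chromosome 1, chrM:6390-11042. Of all 50-base windows, 100% of those of mt-Co2, 99.9% of mt-Co3, 99.5% of mt-Atp6, 98.8% of mt-Nd4l and 98% of mt-Nd3 also occurred in an annotated nuclear transcript. None of the windows of mt-Atp8 did. Most of mt-Atp8 (chrM:7766-7969) falls where no copy is annotated, in a gap of 233 bases between the mt-Co2 and mt-Atp6 copies. The gap is of equal length on chromosome 1 and on the mitochondrial genome, and its nuclear sequence was not analysed here. The end of mt-Atp8 overlaps mt-Atp6, which starts at chrM:7927, and so lies in the mt-Atp6 copy, over less than 1 window. The genes cut by the ends of the stretch shared part of their windows, 51.1% for mt-Co1 and 62.2% for mt-Nd4. The chromosome 1 copy covers 31.3% of mt-Co1, which also has a copy over its whole length on chromosome 2 (Gm13340, 97.6% identity). Shared windows were not split by copy. Outside it the share was 8.19% for mt-Nd2, 7.61% for mt-Nd5, 1.04% for mt-Rnr2 and 0% for mt-Rnr1, mt-Nd1, mt-Nd6 and mt-Cytb. The tables hold only reads assigned to 1 gene, and reads aligned to several places made up 9.22% to 12.9% of all records in a library. How many of those came from these genes cannot be read from the tables.

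The chromosome 1 copies were themselves counted. The 7 pseudogenes had 133, 98 and 390 counts in the controls and 36, 185 and 198 in the Ythdf2 cKO libraries. In 5 of 6 libraries, the copies of mt-Co2, mt-Atp6, mt-Co3, mt-Nd3 and mt-Nd4l had more counts than the mitochondrial genes, as in control replicate 3 with 243 against 139, and only in control replicate 2 were there fewer, 59 against 63. The 7 copies were at 6.43 to 12.6 counts per 1000000 gene counts in cage 1 and at 18.6 to 43.7 in cage 2. They rank the cages in the order of the mitochondrial mRNAs, and whether their reads come from the nuclear or the mitochondrial genome cannot be told apart.

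Counting only the length in 50-base windows that no nuclear transcript shares, an alternative chosen after these values were seen, changed the order of the mRNAs. mt-Co1 came first at 5356 ± 3390 RPKM, above mt-Cytb at 2952 ± 1910 in all 6 libraries (mean ± SD of 6). mt-Nd4 came to 1948 ± 1180, above mt-Nd1 at 1592 ± 572 in 4 of 6. The levels of mt-Nd1, mt-Nd5, mt-Nd2 and mt-Nd6 kept their order among themselves. This scale takes every counted read to come from an unshared window. The comparisons between libraries that follow use each gene's own counts and do not depend on the length.

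**Figure D2:**
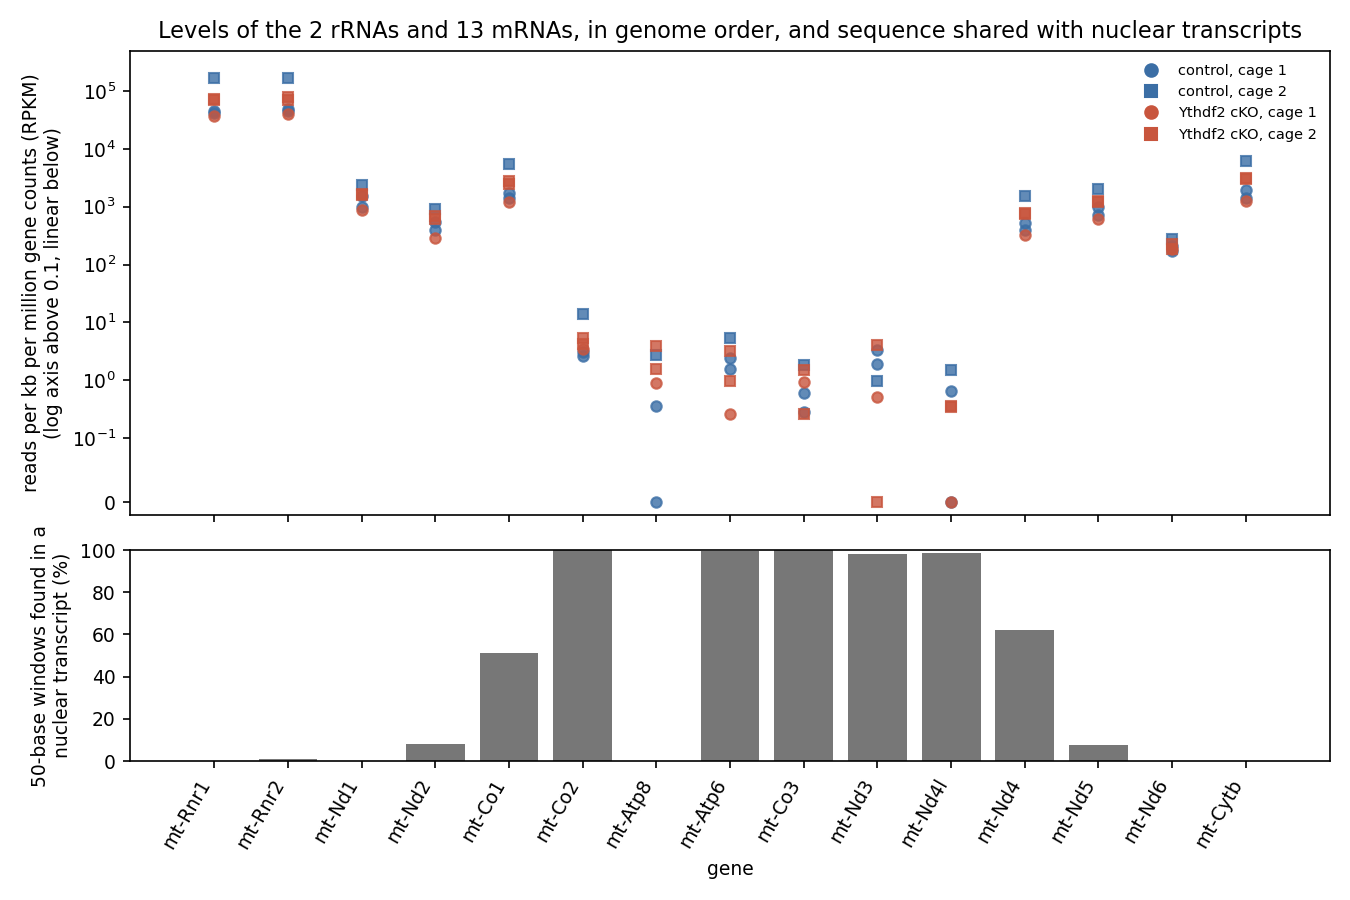
Upper panel, level of each rRNA and mRNA in genome order, in RPKM (log axis above 0.1, linear below); points are libraries, coloured by genotype, with squares for cage 2. Lower panel, percent of the gene's 50-base windows that occur in a nuclear transcript; mt-Co2 through mt-Nd4l sit between 0 and 14.1 RPKM, and all of them but mt-Atp8 share nearly every window.

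The tRNAs were read rarely, with 2537 counts over the 6 libraries and 214 to 715 in each. Their share of gene counts was 0.00258%, 0.00335% and 0.00801% in the controls and 0.00382%, 0.00376% and 0.00547% in the Ythdf2 cKO libraries. The Wilson 95% interval ran from 0.00229% to 0.00290% in control replicate 1 and from 0.00745% to 0.00862% in control replicate 3, which covers counting error only. The tRNA counts are not compared per length with the other classes. mt-Tv, the valine tRNA between the rRNA genes, took 36.1% of them, and the 8 with the most reads took 91.0%. A set of 3 is printed, mt-Tv as the most read and mt-Ty (tyrosine) and mt-Ti (isoleucine) as those with the widest difference between cages, each in the sense of the RNA with its anticodon in capitals. They lie at chrM:1025-1093, chrM:5260-5326 on the minus strand and chrM:3706-3774.
mt-Tv: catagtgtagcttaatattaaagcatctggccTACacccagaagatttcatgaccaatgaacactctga
mt-Ty: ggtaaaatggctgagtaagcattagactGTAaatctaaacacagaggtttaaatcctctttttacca
mt-Ti: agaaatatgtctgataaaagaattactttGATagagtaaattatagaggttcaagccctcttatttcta
mt-Tv had 106, 188 and 235 counts in the controls and 83, 143 and 162 in the Ythdf2 cKO libraries. mt-Ty had 11, 16 and 113 in the controls and 0, 34 and 74 in the Ythdf2 cKO libraries, or 27 counts in cage 1 and 221 in cage 2. mt-Ti had 7, 8 and 38 and then 0, 21 and 33, or 15 counts in cage 1 and 92 in cage 2. For mt-Ty and mt-Ti every cage 2 library held more reads than every cage 1 library.

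Of the other frequently read tRNAs, 4 overlapped between cages. mt-Tp, for proline, had 31, 65 and 129 counts in the controls and 53, 53 and 67 in the Ythdf2 cKO libraries. mt-Tm, for methionine and thus for starting translation as well, had 37, 66 and 43 and then 27, 45 and 54. mt-Tw (tryptophan) had 21, 31 and 30 and then 7, 19 and 36 counts. Counts of these 3 overlapped between cages. mt-Tt (threonine) had 38, 17 and 23 and then 23, 9 and 26 and overlapped as well. mt-Tq (glutamine) had 5, 16 and 20 and then 6, 20 and 19, so that each cage 2 library held more reads than each cage 1 library. The remaining 14 had 0 to 50 counts over all libraries and at most 21 in any 1. mt-Td (aspartate) and mt-Te (glutamate) were never read, which allows up to 3 counts, or 0.0518 CPM over the 6 libraries. This limit covers only reads assigned to 1 gene. mt-Td lies inside the stretch matched on chromosome 1, between the mt-Co1 and mt-Co2 copies, where the nuclear sequence was not analysed. Any of its reads aligned to several places would not be counted. The 5 tRNAs inside the stretch matched on chromosome 1 had 65 counts and the 17 outside it 2472. Since no source used here gives the strand setting of the counting, reads of a minus-strand tRNA such as mt-Ty, or of mt-Nd6, and reads of the opposite precursor cannot be told apart.

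Between cages, most mitochondrial RNAs that could be tested were higher in cage 2. The fit covered all genes, with genotype and cage as terms, and 19 of the 37 passed its filter on low counts (both rRNAs, 9 mRNAs and 8 tRNAs). Of the 19, 10 were called higher in cage 2 and 0 lower at an adjusted p under 0.05 (edgeR quasi-likelihood test, Benjamini-Hochberg over 13172 genes), where 7.83% of all genes tested were called higher and 3.68% lower. The count is a description of the genes that passed the filter: a gene with few reads in cage 1, such as mt-Ti and, nearly so, mt-Ty, could enter it only by being high in cage 2. An unadjusted p under 0.05 was found for 14 of the 19 and for 26.5% of all genes. The log2 fold change was above 0 for 18 of the 19 and for 50.8% of all genes, with a median of 1.53 against 0.01. The cages did not overlap for 13 of the 19, all higher in cage 2, against 15.1% of all genes in that direction. With total counts as the only scaling 647 genes were called higher and 765 lower over the whole table, against 1031 and 485, and the medians became 1.18 for the 19 and -0.32 for all genes, with 9 of the 19 called. With cage as the only term 6 were called.

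The rRNAs rose by 1.79 on the log2 scale for mt-Rnr1 (standard error 0.28, edgeR adjusted p = 0.00501) and by 1.69 for mt-Rnr2 (standard error 0.27, adjusted p = 0.00539). Their mean levels were 119842 ± 94347 CPM in cage 2 and 36470 ± 4075 in cage 1 for mt-Rnr1, and 198331 ± 148002 and 65102 ± 6011 for mt-Rnr2 (SD, n = 3 each). DESeq2 did not call either (adjusted p = 0.473 and 0.469), and with cage as the only term mt-Rnr2 was not called. Without control replicate 3 the changes were 1.03 and 0.96. That fit takes the cage change from the Ythdf2 cKO libraries alone, 1 of them in cage 1. Leaving out Ythdf2 cKO replicate 1 likewise leaves it to the controls alone, 1 of them in cage 2.

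Of the 7 well-read mRNAs, the 6 on the plus strand were called, with standard errors between 0.16 and 0.24. mt-Cytb rose by 1.94, from 1611 ± 399 to 5565 ± 3776 CPM (SD, n = 3 each; edgeR adjusted p = 0.00150). mt-Nd4 rose by 1.82 (adjusted p = 0.00141) and mt-Co1 by 1.79 (adjusted p = 0.00250). mt-Nd5 rose by 1.48 (adjusted p = 0.00177), mt-Nd2 by 1.41 (adjusted p = 0.00111) and mt-Nd1 by 1.25 (adjusted p = 0.00375). With cage as the only term, mt-Nd1 and mt-Nd2 were not called. Without control replicate 3, with the cage change taken from the Ythdf2 cKO libraries alone, that of mt-Co1 was 1.18 and that of mt-Cytb 1.40. mt-Nd6, at 0.66 with a standard error of 0.21, did not pass (134 ± 56.3 against 91.0 ± 9.41 CPM, SD, n = 3 each; adjusted p = 0.0730). DESeq2 did call it (0.68, adjusted p = 0.0237), as did edgeR without the filter (0.63, adjusted p = 0.00210), and with 1 library left out it ran from 0.22 without control replicate 3 (adjusted p = 0.536) to 1.09 without Ythdf2 cKO replicate 1 (adjusted p = 0.0248). Among the mRNAs with few reads, mt-Co2 had 1.81 (adjusted p = 0.111) and mt-Atp6 2.37 (adjusted p = 0.154), and the other 4 were too low to test.

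Of the 8 tRNAs tested, 2 were called. mt-Ty rose by 4.63 on the log2 scale (standard error 0.77, edgeR adjusted p = 0.00614), from 0.682 ± 0.594 to 9.56 ± 7.44 CPM (SD, n = 3 each). mt-Ti rose by 4.04 (standard error 1.03, adjusted p = 0.0372), from 0.385 ± 0.336 to 3.80 ± 2.01 CPM, but its cage 1 libraries all held fewer than the 10 reads of the filter, so it was tested only because it was high in cage 2. Those of mt-Ty held 11, 16 and 0 reads, close to the same limit. The call of mt-Ti was lost with any 1 library left out, with adjusted p from 0.0665 to 0.141, while that of mt-Ty was kept in each of these fits. Both fitted changes rest in part on the 0 count in Ythdf2 cKO replicate 1. Without that library they were 4.09 for mt-Ty and 3.34 for mt-Ti. Without control replicate 3 they were 8.86 for mt-Ty and 7.86 for mt-Ti. There the only cage 1 library that informs the cage change is the one with 0 counts. The others were not past the threshold: mt-Tv had 0.98 (adjusted p = 0.123), mt-Tq 1.53, mt-Tw 1.26, mt-Tp 1.02, mt-Tm 0.49 and mt-Tt -0.19.

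**Figure D3:**
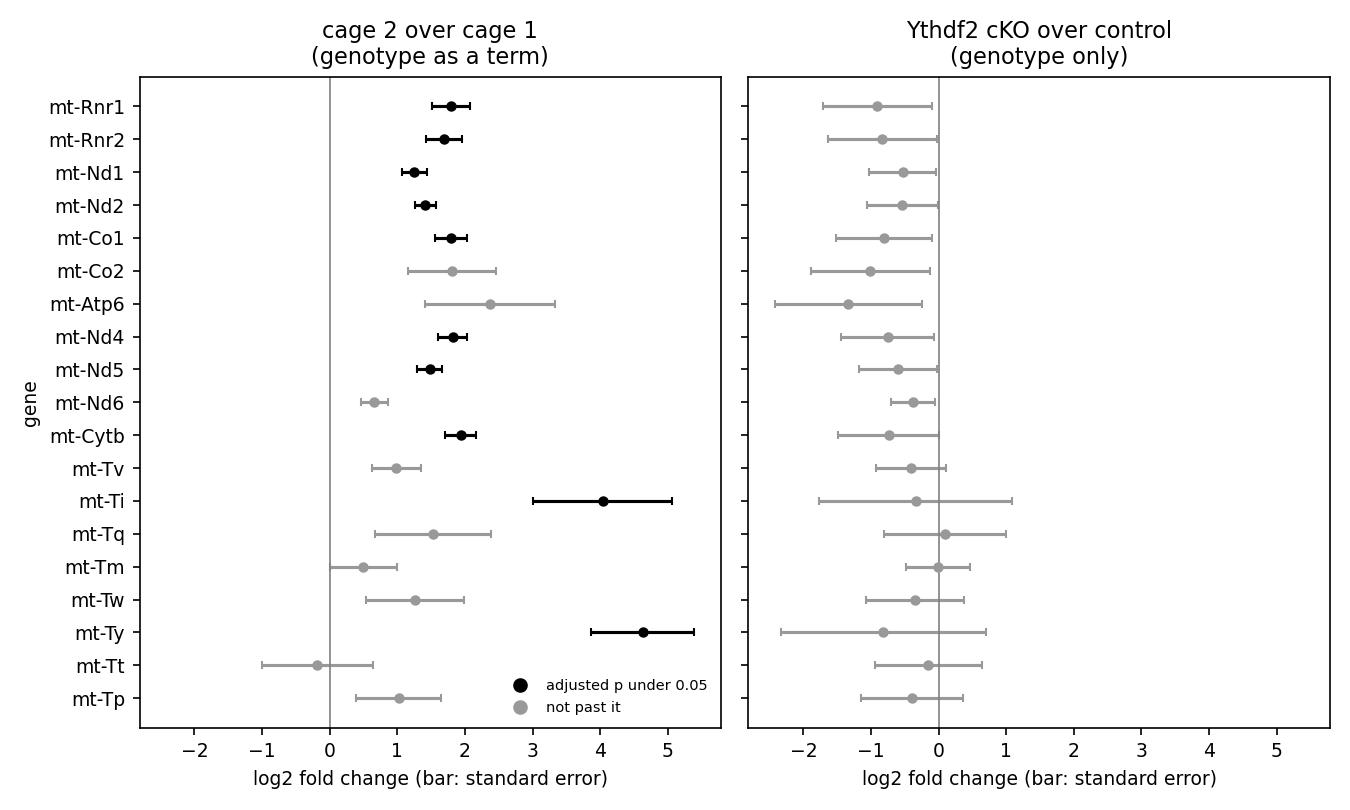
Log2 fold change of the 19 mitochondrial genes tested, for cage 2 over cage 1 with genotype as a term (left) and for the libraries labelled Ythdf2 cKO over control (right). Points are edgeR estimates, bars 1 standard error, black where the adjusted p is under 0.05; 10 are black on the left and 0 on the right.

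The class shares, tested over libraries, moved the same way. The rRNA share was 26.6% ± 13.9 in cage 2 and 11.1% ± 1.03 in cage 1 (SD, n = 3 each), and the mRNA share 1.71% ± 0.671 and 0.760% ± 0.175. Neither pair of groups overlapped, and the exact two-sided permutation p was 0.1 for each, the smallest that 3 against 3 can give, with an adjusted p of 0.133 over 4 measures. The tRNA share was 0.00575% ± 0.00214 and 0.00325% ± 0.000627, which overlapped (exact permutation p = 0.2). Without control replicate 3 the difference between cages was 7.56 percentage points in place of 15.6 for the rRNAs, 0.565 in place of 0.952 for the mRNAs and 0.00137 in place of 0.00250 for the tRNAs.

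Within the mRNA reads, the proportions of 5 genes did not overlap between cages, but none passed the correction (exact two-sided permutation p = 0.1, adjusted p = 0.283 over 17 measures). mt-Cytb made up 27.3% ± 1.23 of the 13 mRNAs in cage 2 and 23.0% ± 0.526 in cage 1, and mt-Nd4 8.05% ± 0.255 and 7.44% ± 0.149 (SD, n = 3 each). mt-Nd1 made up 11.0% ± 1.53 in cage 2 and 14.1% ± 0.986 in cage 1, mt-Nd5 16.4% ± 1.29 and 18.5% ± 0.493, and mt-Nd6 0.728% ± 0.171 and 1.33% ± 0.231. mt-Co1, at 31.92% ± 2.71 and 30.02% ± 1.96, and mt-Nd2, at 4.66% ± 0.797 and 5.53% ± 0.634, overlapped. The log2 ratio of mt-Nd6 to the 12 mRNAs of the other strand was -7.12 ± 0.342 in cage 2 and -6.22 ± 0.247 in cage 1, also without overlap. The log2 ratio of rRNA to mRNA reads was 3.91 ± 0.169 and 3.88 ± 0.198 (exact permutation p = 0.9).

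**Figure D4:**
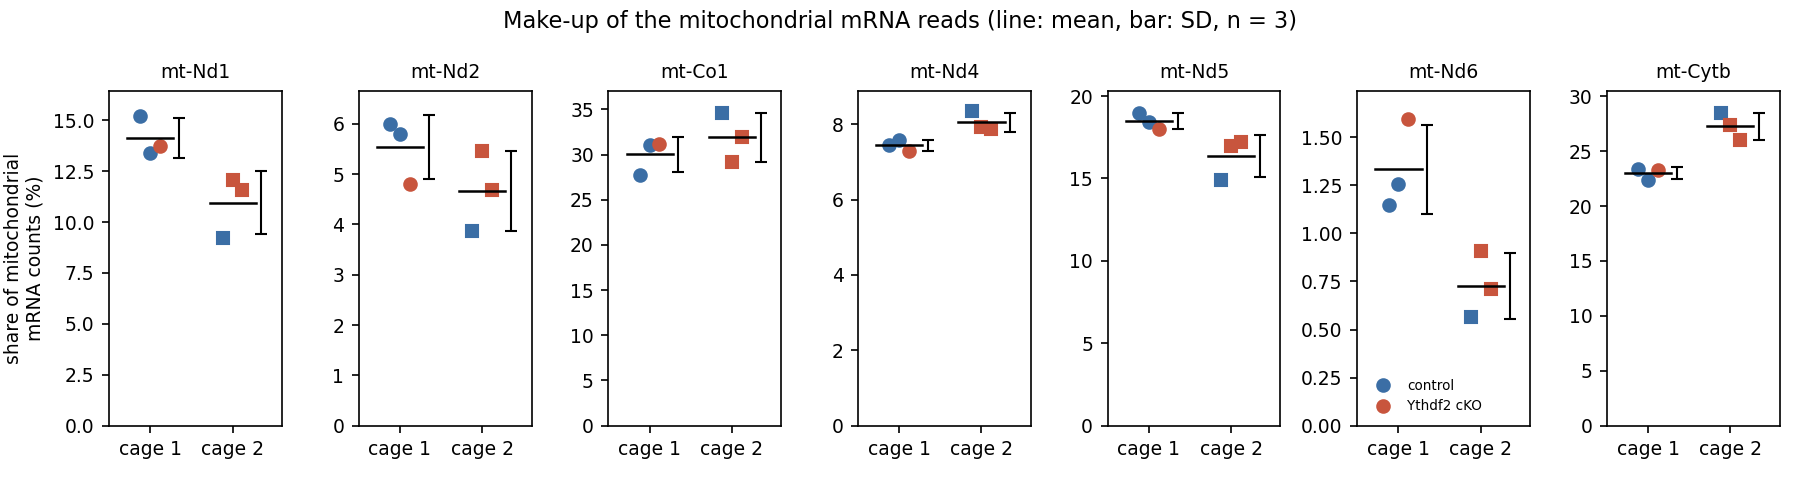
Share of the 13 mitochondrial mRNAs' counts (%) taken by each of the 7 well-read mRNAs, by cage. Points are libraries coloured by genotype, the line is the mean and the bar the SD (n = 3); the cages do not overlap for mt-Nd1, mt-Nd4, mt-Nd5, mt-Nd6 and mt-Cytb.

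Between genotypes, no mitochondrial gene passed the threshold. With group as the only term, 0 of the 19 were called by edgeR, where 0.00% of the 13172 genes tested were called, and 0 had an unadjusted p under 0.05, against 1.62% of all genes. DESeq2 also called 0. In simulated data the edgeR fit of genotype recovered 0% of the genes changed 2-fold. The log2 fold changes of libraries labelled Ythdf2 cKO over control were below 0 for 18 of the 19 and above 0 for 49.3% of all genes, with a median of -0.54 against -0.0049 over all genes, and their standard errors were nearly as large. mt-Rnr1, for instance, had -0.91 with a standard error of 0.81 and mt-Cytb -0.74 with 0.74 (adjusted p = 1 for both). The rRNA share was 15.7% ± 5.02 in the Ythdf2 cKO libraries and 21.9% ± 17.9 in the controls (SD, n = 3 each; exact two-sided permutation p = 0.8, adjusted p = 1 over 4 measures), and the mRNA share 1.09% ± 0.413 and 1.39% ± 0.961 (exact permutation p = 0.8). For 0 of the 19 did the groups fail to overlap, against 3.40% of all genes higher and 4.22% lower. Without control replicate 3, the only control of cage 2, the median of those tested was 0.47. That fit sets controls of cage 1 against Ythdf2 cKO libraries of both cages, so genotype and cage are mixed in it.

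Each cage holds libraries of both genotypes, so the genotypes can also be set side by side within a cage. In cage 1 the rRNA share was 9.97% in the Ythdf2 cKO library and 12.02% and 11.14% in the controls, and in cage 2 it was 18.04% and 19.18% in the Ythdf2 cKO libraries and 42.61% in the control. The mRNA share followed the same order, 0.609% against 0.952% and 0.718% in cage 1 and 1.31% and 1.34% against 2.49% in cage 2. With cage as a term, an alternative to the comparison as designed, all 19 log2 fold changes were below 0, where 46.3% of all genes were above it, from -2.21 for mt-Atp6 to -0.13 for mt-Tt, with a median of -0.92 against -0.04 over all genes. Of the 19, 11 had an unadjusted p under 0.05, against 10.2% of all genes, and 0 were called, the lowest adjusted p being 0.452. mt-Nd2 had -0.92 with a standard error of 0.16 in that fit, mt-Nd4 -1.03 with 0.21 and mt-Rnr1 -1.03 with 0.28 (edgeR adjusted p = 0.452 for each). The summed melanoma markers were at 70.9 CPM in the Ythdf2 cKO library of cage 1 against 467 and 670.6 in its controls. In cage 2 they were at 3025 and 4192 CPM in the Ythdf2 cKO libraries against 4179 in the control. These sums are relative to gene counts that include the mitochondrial genes, so a larger mitochondrial share lowers them. That share was 45.11% in the control of cage 2 and 19.36% and 20.52% in its Ythdf2 cKO libraries. TMM-scaled, Dct, 1 of the 15 melanoma markers, was at 1000 and 1353 CPM in these Ythdf2 cKO libraries against 2006 in the control. The summed macrophage markers were at 7.32 CPM in the Ythdf2 cKO library of cage 1 against 21.02 and 62.2 in its controls, and in cage 2 at 20.4 and 137 against 206, the same order as the rRNA and mRNA shares between genotypes. With group as the only term, all 12 macrophage markers had log2 fold changes below 0 (median -1.21), and 0 were called. Other marker groups went the other way or were near 0, also with 0 called. Above 0 were 6 of 6 erythroid (median 2.42), 3 of 4 fibroblast (0.91) and 10 of 15 melanoma markers (0.09). So were 4 of 5 B and plasma cell (0.30), 2 of 3 CD8 T and NK cell (0.40) and 5 of 11 Treg markers (-0.01). The part of these marker groups in the genotype values was not tested.

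Over all libraries together, the make-up of the mitochondrial reads did not separate the genotypes. mt-Co1 was 30.8% ± 1.39 of the mRNA counts in the Ythdf2 cKO libraries and 31.2% ± 3.44 in the controls, mt-Cytb 25.5% ± 2.08 and 24.7% ± 3.24, and mt-Nd6 1.07% ± 0.464 and 0.992% ± 0.372 (SD, n = 3 each; adjusted exact permutation p = 1 over 17 measures). The log2 ratio of rRNA to mRNA reads was 3.88 ± 0.131 and 3.90 ± 0.225. Only mt-Atp8, with 0 to 8 counts per library, had shares that did not overlap, higher in the Ythdf2 cKO libraries (exact permutation p = 0.1, adjusted p = 1). Within cages, the mt-Nd6 share was above every control in the Ythdf2 cKO libraries, with ratios of 1.32 in cage 1 and 1.425 in cage 2. The log2 ratio of mt-Nd6 to the 12 mRNAs of the other strand was also higher in each cage, by 0.41 and 0.50. The mt-Nd4 share was below the controls in each cage, with ratios of 0.969 and 0.9475. The remaining well-read mRNAs overlapped in a cage or turned between cages. None of these within-cage values was tested.

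Nuclear genes were read from 8 lists with 259 tested genes. A list of nuclear subunits of the respiratory complexes was among them, beside lists of genes that copy, transcribe, process and translate the mitochondrial genome. In the cage comparison 19 of the 259 were called higher in cage 2 and 0 lower, or 7.34%, against 7.83% of all genes called higher, and in the genotype comparison 0 were called. Nuclear subunits of the respiratory complexes held 13 of the 19, out of 78 tested, with a median log2 fold change of 0.34. Each other list held 1 called gene, so the pooled share mixes a list with many calls and lists with few. Uqcrq, of complex III, had 51.8, 41.9 and 88.1 CPM in the controls and 21.9, 73.1 and 76.3 in the Ythdf2 cKO libraries (log2 fold change 1.32, edgeR adjusted p = 0.00686). Atp5b, the catalytic beta subunit of ATP synthase, rose by 0.74 (adjusted p = 0.0110). With total counts as the only scaling 1 of the 259 was called and with cage as the only term 0, and with a library left out between 2 (without Ythdf2 cKO replicate 1) and 22 (without control replicate 3).

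Of 10 tested genes of mitochondrial transcription and 22 of RNA processing and stability, 1 each was called higher in cage 2 and 0 lower, against 7.83% of all genes called higher. Polrmt, the mitochondrial RNA polymerase, was at 17.1, 13.4 and 16.8 CPM in the controls and 18.8, 18.7 and 17.2 in the Ythdf2 cKO libraries, a log2 fold change between cages of 0.04 (edgeR adjusted p = 0.942). Tfam, which packages mitochondrial DNA and activates its promoters, had -0.16 (adjusted p = 0.635). Lrpprc, which stabilises mitochondrial mRNAs together with Slirp, had 0.24 (adjusted p = 0.502), and Slirp itself had 2.35 with a standard error of 1.11 (adjusted p = 0.216). The called transcription gene was Mrpl12, a ribosomal protein that also binds the polymerase, with 1.26 (adjusted p = 0.0234), and Mterf3, a factor that represses mitochondrial transcription, had 0.77 (adjusted p = 0.236). The called processing gene was Ptcd3, a protein of the small mitochondrial ribosomal subunit, with 0.98 (adjusted p = 0.0372), and Fastkd2, needed for the 16S rRNA, had 1.32 (adjusted p = 0.112).

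Each of the remaining lists also had 1 called gene, higher in cage 2, where 7.83% of all genes were called higher. Of 23 modification genes it was Nsun2, a methyltransferase of tRNAs that acts outside mitochondria as well, with 0.81 (edgeR adjusted p = 0.0319). Of 16 genes of mitochondrial DNA maintenance it was Slc25a4, the ADP/ATP carrier, with 0.84 (adjusted p = 0.00896), while Primpol, the primase-polymerase, had -0.68 (adjusted p = 0.115). Of 23 tRNA synthetase genes it was Gars, the glycyl-tRNA synthetase that serves both cytosol and mitochondria, with 1.02 (adjusted p = 0.00959), and Fars2, its counterpart for phenylalanine in mitochondria, had -0.63 (adjusted p = 0.266). Of 13 translation factors it was Gfm1, an elongation factor, with 0.81 (adjusted p = 0.0244). Of 77 mitochondrial ribosomal proteins it was Mrpl12, already named, and Mrps25 had 0.87 (adjusted p = 0.0546). These lists share some genes, and Guf1 (0.80, adjusted p = 0.133) and Yrdc (0.99, adjusted p = 0.0805), a translation factor and a tRNA-modifying enzyme, were not called.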

How the data were processed

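RNA was measured in 6 libraries of sorted tumour Treg cells, 3 per genotype and 3 per cage. Sample titles gave group, replicate number and cage. The deposited files are raw counts of reads per gene, 1 table per library. The submitters' processing notes name Trimmomatic 0.39, HISAT2 2.1.0, HTSeq, DESeq2 and the mm10 build. Which annotation and strand setting the authors counted with is not given in the sources used here. GENCODE M21 supplied symbols, coordinates and sequences and matched 54409 of 54446 gene rows by identifier. Library sizes and tests leave out the rows without a gene, namely reads in no gene (24.6% to 35.8% of records), ambiguous reads (1.43% to 2.21%) and reads at several places (9.22% to 12.9%). Every pair of libraries differed beyond sampling noise, with a chi-square per degree of freedom of at least 17.0.

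Tests across genes used the edgeR 4.0.16 quasi-likelihood test in R 4.3.3 after filterByExpr (minimum count 10, minimum total 15) and TMM scaling, over 13172 genes. Genotype was fitted with group alone, and cage with group and cage. Adjusted p-values are Benjamini-Hochberg, called under 0.05. CPM are TMM-scaled, whereas shares, levels per kb and marker sums are relative to total gene counts. Class shares and proportions were compared by exact two-sided permutation over libraries. Nuclear copies were found with BLASTN 2.17.0 (at least 100 aligned bases and 90% identity) and by exact search of 50-base and 100-base windows against all M21 nuclear transcripts. The gene test was tested on simulated data with 200 changed genes. The genotype fit recovered 0% of them at 2-fold, 46.5% at 4-fold and 69% at 8-fold. The cage fit recovered 27.5%, 66% and 81.5%. The members, the nuclear gene lists and the markers were chosen with earlier results of these data known. Named were all mitochondrial genes, the 8 most read tRNAs in full, and from the nuclear lists Polrmt, Tfam, Lrpprc, Slirp and up to 2 genes per list with the smallest p between cages. Alternatives were DESeq2 1.42.0, scaling by total counts or by nuclear genes only, no filter or a mean CPM of at least 5, a block on the replicate number, cage as a term or as the only term, other denominators or a log2 scale for the shares, and each library left out. Libraries ranged from 5602053 to 13602069 gene counts. Reads are not independent molecules, so intervals and limits cover counting error only.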

Additional observations from a re-analysis of the deposited data

Results flagged for a closer look

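Some values moved in opposite directions between the genotypes in the 2 cages, every library labelled Ythdf2 cKO lying above every control of its cage in 1 cage and below in the other. None of these differences between cages was tested, and each cage holds only 3 libraries, 1 of them alone in its genotype. Differences are given as Ythdf2 cKO minus control. The tRNA share of gene counts differed by 0.000859 percentage points in cage 1 and by -0.00339 in cage 2. Among single tRNAs, mt-Tv differed by 2.55 CPM in cage 1 and -21.7 in cage 2, mt-Tp by 5.09 and -14.3, and mt-Tt by 1.51 and -1.84. mt-Co2, one of the mRNAs with few reads, differed by 0.308 CPM in cage 1 and -10.4 in cage 2. The log2 ratio of rRNA to mRNA reads differed by 0.226 and -0.288. Of the shares within the mRNA counts, mt-Nd2 differed by -1.08 percentage points in cage 1 and 1.21 in cage 2, mt-Co1 by 1.79 and -4.08, and mt-Nd5 by -0.70 and 2.22.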

How the results depend on the processing

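Depth limits the tRNAs, at 214 to 715 counts per library, and the 6 mRNAs with few reads, while 3 libraries a group and the spread of control replicate 3 limit the rest. Over all genes, the calls of the cage comparison were 2580 higher and 856 lower with DESeq2, and 647 and 765 when scaled by total counts alone. The lower calls were 873 without the filter and 146 with cage as the only term. With 1 library left out there were 595 to 919 higher and 65 to 375 lower, the fewest of both without Ythdf2 cKO replicate 3. The genotype comparison called 26 genes higher and 7 lower without the filter, none of them mitochondrial. Of the mitochondrial genes, 9 to 13 were called between cages with 1 library left out, of 20 to 23 tested. With DESeq2 9 of 35 fitted were called, with total counts 9 of 19 and without the filter 12 of 35. With the stricter filter 8 of 11 were called and with cage as the only term 6 of 19. The fits held 27600 genes with DESeq2 or no filter, 9955 with the stricter filter and 13701 to 14077 with 1 library left out. Of the nuclear partner genes, 1 was called with total counts, 0 with cage as the only term and 2 to 22 with 1 library left out. The cause of these changes was not tested.

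In the genotype comparison the direction of most values turned in some setting, none of them called. The difference in tRNA share was 0.063 on the log2 scale. With 1 library left out, the difference in share of gene counts ran from -11.6 to 4.15 percentage points for the rRNAs, -0.633 to 0.251 for the mRNAs, -0.00133 to 0.00139 for the tRNAs and -12.2 to 4.40 for all 37 genes, highest without control replicate 3 each time. The log2 ratios ran from -0.018 to 0.065 for mt-Rnr2 to mt-Rnr1, -0.14 to 0.078 for rRNA to mRNA, -0.0049 to 0.56 for tRNA to mRNA and -0.26 to 0.36 for mt-Nd6 to the other mRNAs. The shares of mRNA counts ran from -1.83 to 1.18 percentage points for mt-Nd1, -0.914 to 0.158 for mt-Nd2, -2.09 to 1.35 for mt-Co1, -0.266 to 0.176 for mt-Nd4, -1.30 to 0.751 for mt-Nd5, -0.184 to 0.259 for mt-Nd6 and -0.360 to 2.65 for mt-Cytb. Between cages, the log2 ratio of rRNA to mRNA ran from -0.087 to 0.10.

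Log2 fold changes between genotypes with 1 library left out were highest without control replicate 3, the only control of cage 2, except for mt-Tt. They ran from -1.31 to 0.53 for mt-Rnr1, -1.22 to 0.51 for mt-Rnr2, -0.86 to 0.21 for mt-Nd1, -0.86 to 0.22 for mt-Nd2, -1.20 to 0.53 for mt-Co1, -1.45 to 0.65 for mt-Co2, -1.15 to 0.51 for mt-Nd4, -0.95 to 0.34 for mt-Nd5, -0.61 to 0.12 for mt-Nd6 and -1.16 to 0.64 for mt-Cytb. For the tRNAs they ran from -0.75 to 0.44 for mt-Tv, -1.15 to 1.68 for mt-Ti, -0.36 to 1.11 for mt-Tq, -0.23 to 0.34 for mt-Tm, -0.94 to 0.22 for mt-Tw, -1.94 to 1.87 for mt-Ty, -0.60 to 0.25 for mt-Tt and -0.83 to 0.97 for mt-Tp. Between cages, mt-Tp ran from -0.50 to 2.49 and mt-Tt from -1.05 to 0.68. Back in the genotype comparison, mt-Tm was at 0.0037 with DESeq2, and with total counts mt-Ti was at 0.077, mt-Tm at 0.20 and mt-Tt at 0.061. With cage as a term mt-Tq was at -0.21 between genotypes.

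The replicate numbers do not pair the libraries: deviations of same-numbered libraries correlated at 0.41, -0.24 and 0.55, 3 of the 6 libraries correlated best with their own number, and number 2 crosses the cages. With the replicate block 0 mitochondrial genes were called, 224 genes had an unadjusted p under 0.05 against 213, the median of the tested mitochondrial genes was -0.39, and mt-Tm and mt-Tp turned to 0.035 and 0.092.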
